A study of Mus musculus with 12 samples.

Results

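The genes described here are the Wnt ligands with their receptors, modulators and secreted antagonists in the fetal mouse liver. They were taken from the deposited table by symbol: the numbered Wnt, Fzd, Sfrp, Dkk and Rspo genes, with Lrp5, Lrp6, Axin2, Lgr4, Lgr5, Znrf3, Rnf43, Ctnnb1, Tcf7, Lef1, Tcf7l1 and Tcf7l2. The rule used no measured value and found 53 genes among 30743 rows: 19 ligands, 10 Frizzled receptors, 2 co-receptors, 4 R-spondins, 4 R-spondin receptors and E3 ligases, 8 secreted antagonists and 6 intracellular components.

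RNA was sequenced from whole livers of male C57BL/6J fetuses at 15 ± 0.5 days post coitum. The dams, C57BL/6 CD45.2 mice, of 6 fetuses had received a high-fat diet (HFD, 60 kcal% fat) and those of the other 6 a control diet (13.5 kcal% fat) for 12 to 14 weeks. How many litters the livers came from is not given in the sources used here. The value analysed for each gene is the authors' average log2 CPM (read counts scaled to the same total in each library) over all 12 livers, so it pools both diets. It carries no spread between livers, and the diets are therefore not compared: what follows describes levels, with no test.

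Wnt proteins are secreted lipid-modified ligands that bind Frizzled receptors together with the co-receptors Lrp5 or Lrp6. Binding stops the destruction of β-catenin, encoded by Ctnnb1, which then activates transcription with the Tcf and Lef factors and induces feedback genes such as Axin2. R-spondins strengthen the signal: they bind Lgr receptors and remove the E3 ligases Znrf3 and Rnf43, which otherwise clear Frizzleds from the cell surface. Sfrp proteins bind Wnts outside the cell, and most Dkk proteins block Lrp5 and Lrp6. In the liver this pathway is known for controlling hepatoblast growth and, in the adult, the zonation of hepatocyte metabolism. The fetal liver is also the main site of blood formation at this stage, and in whole tissue fewer cells of a type and less RNA per cell cannot be told apart.

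The depth recovered from the table was 157557000 reads over the 12 livers, a mean of 13130000 per liver (both rounded). Rows without reads sat at the lowest value of the table, −2.71 log2 CPM (0.152 CPM), because a small prior count had been added to every gene. CPM values below include this offset unless stated, whereas levels per kilobase had it subtracted. No reads for a gene allowed a level of up to 0.0190 CPM without the offset (3 reads over all livers, counting error only). All 53 genes were found in RefSeq and in the GENCODE annotation of GRCm38.

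The labelled tissue was checked against its markers. The hepatoblast and hepatocyte genes Alb and Afp stood at 63314 and 54525 CPM, and the erythroid genes Hbb-b1 and Slc4a1 at 24904 and 12037 CPM. Endothelial Lyve1 (151 CPM) and Cdh5 (144 CPM) and the mesenchymal gene Col1a1 (468 CPM) were also present. Others on the same lists were low: hepatoblast Dlk1 was at 1.47 CPM, erythroid Alas2 at 0.704 CPM and endothelial Stab2 at 2.24 CPM. Of the macrophage markers, Csf1r was at 0.684 CPM and Cd5l at 385 CPM. Of the 62 markers found, 40 were at or above 1 CPM and 22 under it. Of 3 gut epithelium markers, Vil1 was highest at 4.04 CPM. Of 5 pancreas acinar markers, Cela1 (13.7 CPM), Ctrb1 (12.5 CPM) and Cpa1 (8.04 CPM) exceeded 1 CPM, while Ptf1a was at 0.222 and Pnlip at 0.165 CPM. None of the 5 T lineage markers reached 1 CPM. The part of these other cell types in the levels of the Wnt genes was not tested.

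Several genes that define cells of this tissue were nevertheless listed without a single read. Among 62 marker genes in the table, the 5 without reads were Hnf4a (a hepatocyte transcription factor), Pecam1 (endothelium), Pdgfrb (mesenchyme), Emr1 (macrophage) and Cd8a (T lineage), and Kit, the stem cell factor receptor, had 1 read. All 5 have more than 1 mRNA transcript in RefSeq. They were 5 of 19 such markers, against 0 of 43 markers with 1 transcript, a split noticed after the values were seen. It did not extend to all protein-coding genes, where rows without reads were 24.4% of those with 1 transcript and 18.6% of those with 2 or more. High levels, in contrast, were less frequent with more transcripts. Levels of at least 16 CPM were listed for 28.4% of the 12531 genes with 1 transcript, 14.8% of the 3970 with 2, 12.7% of the 1775 with 3, 9.70% of the 907 with 4 and 8.49% of the 1107 with 5 or more. How reads shared between transcripts were counted is not given in the sources used here, and its part in these levels was not tested.

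Among genes with several transcripts, the listed level moved with how much of a gene belongs to only 1 of them. Among 5275 genes with several RefSeq-linked transcripts in GENCODE, the median was −2.09 log2 CPM where under 5% of exon bases lay in only 1 transcript (1003 genes, 28.3% without reads). It was −0.97 log2 CPM at 20 to 40% (1078 genes) and 1.62 log2 CPM at 80 to 100% (199 genes, 7.54% without reads). Across these genes, which are not independent replicates, Spearman's rho was 0.233 and Pearson's r 0.257. The trend did not continue to the 14833 genes with 1 linked transcript, whose median was −0.28 log2 CPM, with 23.1% without reads. Hnf4a and Pdgfrb, without reads, also have 1 linked transcript. Because markers of this tissue were among the genes without reads, a low listed level of a gene with several RefSeq transcripts was, as a precaution, not read as low expression. Markers with 1 RefSeq transcript were also listed low, such as Csf1r (0.684 CPM) and Stab2 (2.24 CPM), and the cause of either was not tested.

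**Figure D1:**
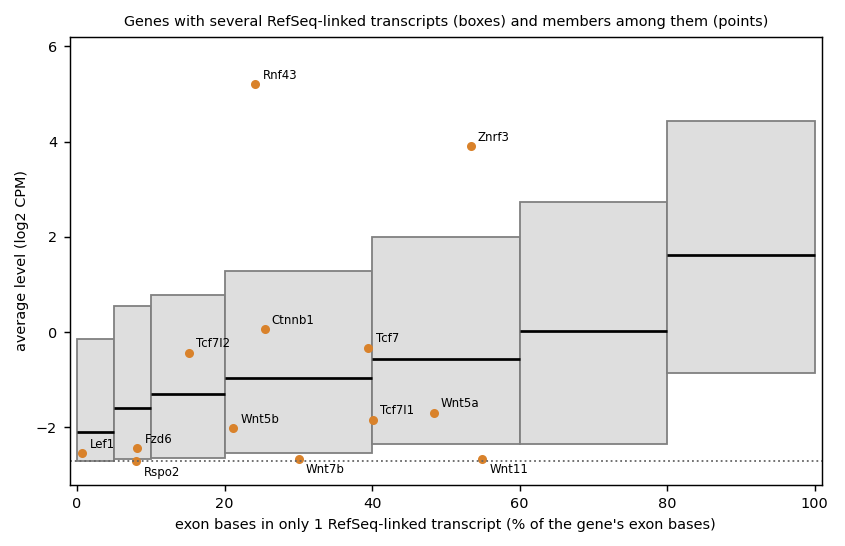
Average level (log2 CPM, y axis) against the share of a gene's exon bases that lie in only 1 of its RefSeq-linked transcripts (%, x axis). Boxes span the lower to the upper quartile of all genes in a bin and black lines are medians, which rise from −2.09 to 1.62 log2 CPM; points are the 13 Wnt pathway genes with several linked transcripts, and the dotted line is a row without reads.

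Lef1, a transcription factor that partners β-catenin, shows what this share means. Lef1 (chr3:131110471-131224356, + strand, GRCm38) has 7 RefSeq mRNA transcripts, of which 3 are linked to GENCODE, and 24 of their 3506 exon bases (0.685%) lie in only 1 of them. These 24 bases lie at the start of the first exon of that transcript, at chr3:131112797-131112820, and span a start codon. They are printed below in capitals, 5′ to 3′, followed in lower case by the next 3 bases of the transcript, from the GENCODE transcript sequences.
Lef1: ACCTTCTCTGTCCCGATGGCAGGGgtg
Lef1 was listed with 3 reads over all 12 livers (exact Poisson interval 0.619 to 8.77, 95%, counting error only). Reads did not follow the share in every gene: Wnt11, at 54.9%, had 1 read, and Rnf43, at 24.2%, had 5797.

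Of the 53 Wnt pathway genes, 37 have 1 RefSeq mRNA transcript and 16 have several. Transcript numbers below count RefSeq mRNA transcripts unless linked ones are named. GENCODE lists more for some of the 37, among them Lgr4 with 4, Axin2 with 7 and Lgr5 with 8. Among the 37, 20 (54.1%) were at or above 1 CPM, with a median of 1.47 log2 CPM. Among the 16, only Rnf43, Znrf3 and Ctnnb1 (18.8%) were, Ctnnb1 only with the offset (0.895 CPM without it). The median of the 16 was −1.93 log2 CPM. The same shares over protein-coding genes were 47.9% for 1 transcript and 40.5% for 2 or more. Reads were absent for 3 of the 37 and 1 of the 16. Below, a share of a role's summed level is over all its members as listed, with the share over its genes with 1 transcript beside it where they differ.

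**Figure D2:**
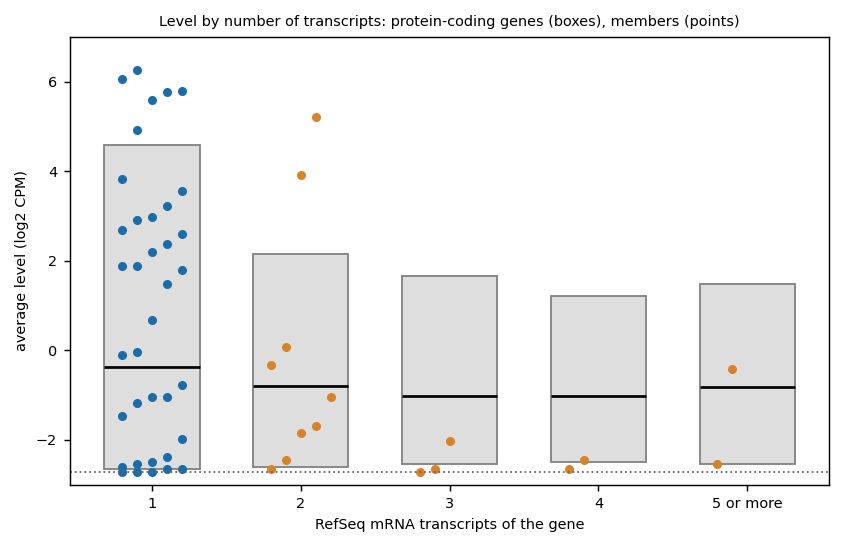
Average level (log2 CPM, y axis) by the number of RefSeq mRNA transcripts of a gene (x axis). Boxes span the lower to the upper quartile of protein-coding genes with black lines at the medians, points are the 53 Wnt pathway genes spread sideways for legibility, and the dotted line is a row without reads; the upper quartile is 4.58 log2 CPM with 1 transcript and 1.83 over all genes with 2 or more.

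In all, 49 of the 53 genes (92.5%) had reads, 23 (43.4%) were at or above 1 CPM and 7 (13.2%) at or above 16 CPM. Over all rows these shares were 63.9%, 33.1% and 15.5%, and over protein-coding genes 77.8%, 45.1% and 22.5%, so the share at or above 1 CPM was near that of protein-coding genes. The median gene of the set stood at −0.43 log2 CPM, the 44.1 percentile of rows with reads, and the median of those rows was 0.20. The roles differed widely in listed level. All 4 R-spondin receptors and E3 ligases and both co-receptors were above 1 CPM. So were 6 of 10 Frizzleds, 4 of 8 antagonists and 2 of 4 R-spondins, but only 3 of 19 ligands. The 7 genes at or above 16 CPM were Sfrp1, Lgr4, Fzd1, Lrp6, Fzd7, Rnf43 and Fzd4, and none was a ligand.

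**Figure D3:**
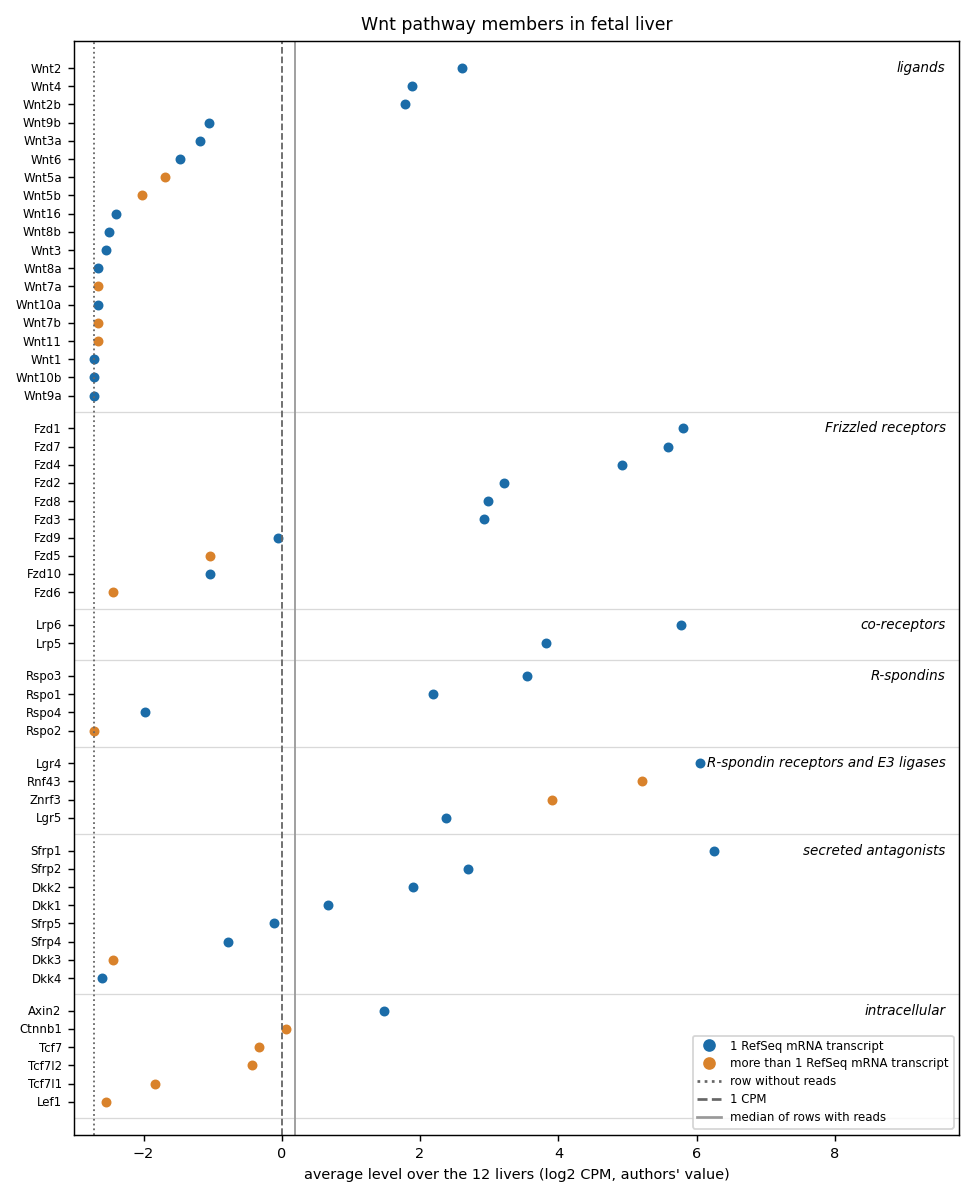
Average level over the 12 livers (log2 CPM, x axis) of each of the 53 genes (y axis), grouped by role and ordered by level within a role. Blue points are genes with 1 RefSeq mRNA transcript and orange points genes with more than 1; vertical lines mark a row without reads (−2.71), 1 CPM and the median of rows with reads (0.20). Sfrp1 is highest at 6.25 log2 CPM, and 16 of the 19 ligands lie below 1 CPM.

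Among the ligands, Wnt2, Wnt4 and Wnt2b held most of the summed listed level. Wnt2 (chr6:17988940-18030585), the highest, was at 6.06 CPM, or 2.62 CPM per kilobase of exons, from 931 reads over the 12 livers (872 to 993, counting error only). Wnt4 (chr4:137277489-137299726) was at 3.70 CPM and 0.845 CPM per kilobase, and Wnt2b (chr3:104945272-104961921) at 3.44 CPM and 0.782 CPM per kilobase. Per kilobase, Wnt2 made up 56.9% of the summed ligand level, Wnt4 18.3% and Wnt2b 17.0%, together 92.2%. Over the 14 ligands with 1 transcript these shares were 57.6%, 18.6% and 17.2%, together 93.4%. Wnt2 was thus 3.10 times Wnt4, whereas Wnt4 and Wnt2b exchanged places with the length used: their ratio was 1.08 over the union of exons and 0.853 over the longest transcript.

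The other 16 ligands were under 1 CPM. Wnt9b (52 reads), Wnt3a (45), Wnt6 (33), Wnt5a (25) and Wnt5b (15) ranged from 0.247 to 0.482 CPM. A further 8 had 1 to 6 reads over all livers: Wnt16 had 6, Wnt8b 4 and Wnt3 3, while Wnt7a, Wnt7b, Wnt8a, Wnt10a and Wnt11 had 1 each. Wnt1, Wnt9a and Wnt10b had none, which leaves room for up to 0.0190 CPM without the offset. With the offset, as in the range above, Wnt3 with its 3 reads stood at 0.171 CPM. Wnt1, Wnt9a and Wnt10b have 1 RefSeq mRNA transcript each. Wnt5a, Wnt5b, Wnt7a, Wnt7b and Wnt11 have several, so by the same precaution their low listed levels were not read as low expression. For Wnt5a, best known for signalling that does not use β-catenin, 48.3% of the exon bases lay in only 1 of its 2 transcripts. The share was 21.1% in Wnt5b, 30.1% in Wnt7b and 54.9% in Wnt11, whereas Wnt7a has 1 linked transcript and so 100%.

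The Frizzleds, the receptors that bind Wnts, were listed at higher levels than the ligands. Fzd1 (chr5:4753839-4758035) was at 55.6 CPM and 13.2 CPM per kilobase, followed per kilobase by Fzd7 (chr1:59482424-59486955) at 47.8 CPM and 10.5 CPM per kilobase. Their ratio per kilobase was 1.26. Fzd4 (chr7:89404355-89413134), which is also the receptor for Norrin, stood at 30.3 CPM and 4.49 CPM per kilobase, and Fzd2 at 9.32 CPM and 2.50 CPM per kilobase. Fzd1, Fzd7, Fzd4 and Fzd2 made up 92.8% of the summed Frizzled level per kilobase (93.0% over those with 1 transcript).

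Fzd8 at 7.87 CPM and Fzd3 at 7.56 CPM were nearly level in CPM, but not per kilobase. There Fzd8 was at 1.29 and Fzd3, whose exons cover 12804 bases, at 0.579 CPM per kilobase. Fzd9 (0.966 CPM), Fzd5 (0.487 CPM) and Fzd10 (0.485 CPM) were under 1 CPM. Fzd6 was lowest at 0.184 CPM, 5 reads over all livers. Of these 4, Fzd5 and Fzd6 have 2 RefSeq mRNA transcripts. In Fzd6, 8.17% of the exon bases lay in only 1 of them, whereas Fzd5 has 1 linked transcript and so 100%. Of the 10 Frizzled genes, 6 have a single exon block, so their length per kilobase does not depend on splicing.

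The co-receptors were both well above 1 CPM. Lrp6 (chr6:134446476-134566965) was at 54.5 CPM and Lrp5 (chr19:3584828-3686564) at 14.1 CPM. Per kilobase the levels were 3.97 and 1.43, a ratio of 2.77, which was 3.69 with the longest transcript as the length. Lrp6 thereby held 73.5% of the summed co-receptor level. Its place relative to Fzd4 depended on the length: Fzd4 was 1.13 times Lrp6 per kilobase of the union of exons and 0.774 times per kilobase of the longest transcript.

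Of the R-spondins, Rspo3 and Rspo1 were above 1 CPM. Rspo3 (chr10:29452416-29535867) was at 11.7 CPM and 3.75 CPM per kilobase, and Rspo1 (chr4:124986430-125009099) at 4.55 CPM and 2.27 CPM per kilobase. Rspo3 was 1.65 times Rspo1 per kilobase and 1.43 times Wnt2, the ligand with the highest listed level. For Rspo3, 13.1% of the exon bases overlap another gene, and the library kit does not mark strand. Rspo4 had 16 reads and Rspo2 none. Rspo2 has 3 RefSeq mRNA transcripts, with 8.03% of its exon bases in only 1 of the linked ones.

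The R-spondin receptor Lgr4 (chr2:109917647-110014257) was at 66.1 CPM and 11.2 CPM per kilobase. Lgr5, its relative known as a marker of stem cells in several epithelia, was at 5.17 CPM and 0.489 CPM per kilobase. Lgr4 was 22.9 times Lgr5 per kilobase of the union of exons and 12.5 times per kilobase of the longest transcript. The E3 ligases that R-spondins remove both exceeded 1 CPM, and both have 2 transcripts. Rnf43 (chr11:87662722-87735539) was at 36.9 CPM and 5.61 CPM per kilobase, and Znrf3 at 15.0 CPM and 1.88 CPM per kilobase. Lgr4 made up 58.4% of the summed level of these 4 genes per kilobase. It made up 95.8% of that of Lgr4 and Lgr5, which have 1 RefSeq mRNA transcript each. In Rnf43 24.2% and in Znrf3 53.4% of the exon bases lay in only 1 transcript. Genes whose share is 20 to 40% had an upper quartile of 1.28 log2 CPM, and Rnf43 stood at 5.21.

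Sfrp1, a secreted protein that binds Wnts, had the highest listed level of all 53 genes. Sfrp1 (chr8:23411502-23449632) was at 76.1 CPM and 17.4 CPM per kilobase, the 89.4 percentile of rows with reads, from 11961 reads over the 12 livers. It made up 77.6% of the summed level of the secreted antagonists per kilobase. Sfrp2 followed at 6.46 CPM and 2.93 CPM per kilobase, so that Sfrp1 was 5.93 times Sfrp2. For Sfrp2, 16.1% of the exon bases overlap another gene, in libraries that do not mark strand. Sfrp5 (0.929 CPM) and Sfrp4 (0.586 CPM) were under 1 CPM. All 4 Sfrp genes have 1 RefSeq mRNA transcript.

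The Dkk genes were lower. Dkk2 was at 3.71 CPM and 0.960 CPM per kilobase and Dkk1, an inhibitor that binds Lrp5 and Lrp6, at 1.59 CPM and 0.594 CPM per kilobase. They made up 61.0% and 37.8% of the summed Dkk level (61.4% and 38.0% over those with 1 transcript). Dkk4 had 2 reads. Dkk3, which has 4 RefSeq mRNA transcripts and, unlike the others, is not known to bind the co-receptors, had 5. Of those 4, 1 is linked to GENCODE, so its share of exon bases in only 1 linked transcript is 100%. Summed per kilobase over the genes with 1 transcript, the secreted antagonists were at 4.92 times the ligands, the Frizzleds at 7.27 times and the R-spondins at 1.33 times. Sfrp1 alone was at 3.82 times the 14 ligands with 1 transcript together.

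**Figure D4:**
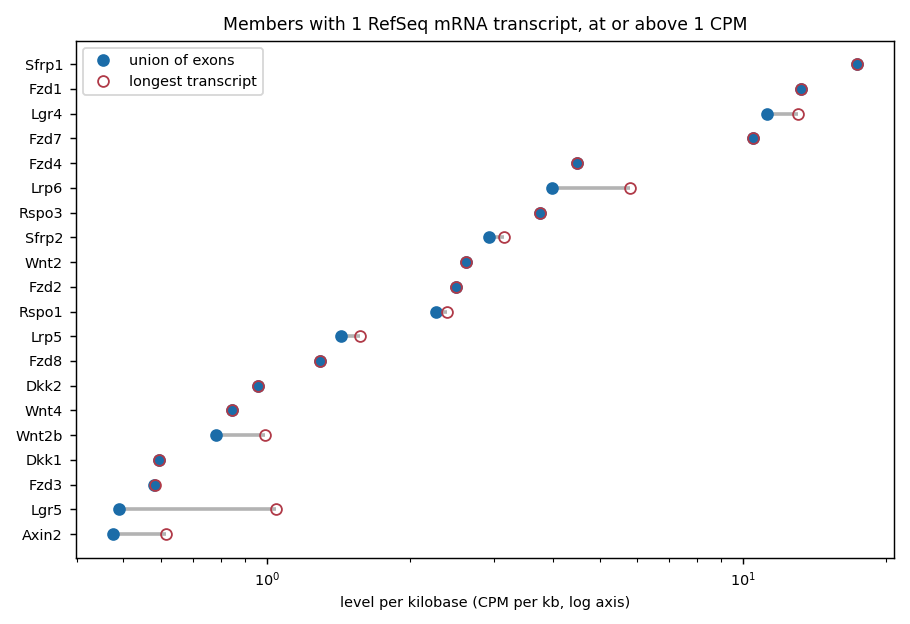
Level per kilobase (CPM per kb, log scale, x axis) of the 20 genes with 1 RefSeq mRNA transcript at or above 1 CPM (y axis). Filled points divide by the union of a gene's exons and open points by its longest transcript, joined by a grey line; the union gives 17.4 for Sfrp1 and 0.476 for Axin2, and the longest line is that of Lgr5.

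Of the intracellular components, Axin2 alone has 1 RefSeq mRNA transcript. Axin2 (chr11:108920349-108950783), a negative regulator that the pathway itself induces, was at 2.77 CPM and 0.476 CPM per kilobase from 413 reads. Ctnnb1 (chr9:120929216-120960507), which encodes β-catenin and is used in adhesion by most cell types, was listed at 1.05 CPM with 141 reads (119 to 166, counting error only). It has 2 transcripts, with 25.4% of the exon bases in only 1 of them, and 15.1% of its exon bases overlap another gene. The transcription factors were Tcf7 at 0.798 CPM, Tcf7l2 at 0.743 CPM, Tcf7l1 at 0.279 CPM and Lef1 at 0.171 CPM. All 4 have several transcripts, up to 24 for Tcf7l2, and their order was read no further.

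Of 62 further gene symbols of the pathway that were looked for, 57 were in the table. The other 5 were searched under that symbol only, so their genes may be listed under another name. Among the 57, 29 were at or above 1 CPM, 13 at or above 16 CPM and 3 without reads. Over protein-coding genes these shares were 45.1%, 22.5% and 22.2%. The 3 without reads were Ryk, Musk and Tle3, which all have several RefSeq mRNA transcripts. Split by transcript number, the shares without reads over all protein-coding genes, given above, ran the other way. The highest were Glul (487 CPM), the glutamine synthetase that marks pericentral hepatocytes in the adult, Gpc3 (427 CPM), a cell surface glypican abundant in fetal liver, and Gsk3a (157 CPM), a kinase that phosphorylates β-catenin. All 8 listed genes of the β-catenin destruction complex were above 1 CPM, from 1.56 CPM for Axin1 to Gsk3a, with Gsk3b at 128 and Apc at 96.7 CPM. Of these 8, 7 have several RefSeq mRNA transcripts, Gsk3b and Apc among them. Over the whole list, 16 of the 33 genes with several transcripts were at or above 1 CPM, and 13 of the 24 with 1.

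Genes that release or modify ligands were listed low. Porcn, which attaches the lipid to Wnts, was at 0.381 CPM, Wls, which carries them to the cell surface, at 0.809 CPM and Notum, which removes the lipid, at 0.444 CPM. All 3 have several transcripts. Of 6 other inhibitors, all with 1 transcript, Kremen1, which acts with Dkk proteins, was at 22.9 CPM and Wif1, which binds Wnts, at 1.63 CPM. Kremen2, Apcdd1, Sost and Sostdc1 ranged from 0.171 to 0.519 CPM. Among other receptors with 1 transcript, Ptk7 was at 64.2 CPM, Ror2 at 2.40 CPM and Lgr6, the third Lgr receptor for R-spondins, at 0.755 CPM. Of the pericentral genes of the adult liver, Cyp2e1 and Cyp1a2, both with 1 transcript, were at 0.356 and 0.494 CPM. Of 8 planar polarity genes, Celsr1 exceeded 1 CPM, at 1.55 CPM.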

How the data were processed

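Whole-liver RNA of 12 male fetuses (6 control, 6 HFD) was polyA-selected, made into libraries with a kit that does not mark strand and sequenced on the Illumina platform. Per the labels and the study's methods, the authors used cutadapt 1.2.1, aligned with Subread 1.3.6-p1 (genome build mm10), annotated with biomaRt and compared the diets in edgeR. How reads were assigned to genes, and the annotation release, were not given in the sources used here. The deposited table holds, for 30743 gene symbols, the average log2 CPM over all livers and the authors' comparison of the diets (fold changes, p-values and false discovery rates under common and tagwise dispersions). The columns of that comparison were not used, and the log2 CPM was taken as the authors' value, without SD or n. It was equal in both dispersion settings in all 30743 rows. The planned test between diets needs counts of single livers and could not be run on this unit.

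The lowest value was taken as a row without reads. Assuming a prior count of 2, reads over the 12 livers, scaled to their mean library size, were computed from each value. Of 5453 rows with up to 20 reads, 97.5% came within 0.1 of a whole number. On simulated data (2000 genes over 12 libraries), 100% of 490 low genes were recovered within 0.5 reads, and the median error of 1458 higher genes was 0.263%. The simulated data had the same prior count, a small spread between livers and no diet effect. They could therefore not check the prior count assumed, nor genes that are uneven between livers. Intervals are exact Poisson intervals at 95% and cover counting error only. Levels per kilobase divide CPM, less the value of a row without reads, by the union of GENCODE exons on GRCm38. RefSeq matched 20855 symbols directly and 2218 by synonym, with 7670 unmatched. GENCODE matched 22832. Both annotations may differ from the one the authors used. Exon overlap with another gene exceeded 10% in 5 of the 53 genes (Fzd5, Sfrp2, Ctnnb1, Lef1 and Rspo3) and was absent in 42.

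Genes were compared with pandas 2.3.3, numpy 2.4.6 and scipy 1.17.1 in Python 3.11.15. Every member at or above 1 CPM was named with its value, the highest per kilobase first in each role, and of further pathway and marker lists the 3 highest and any without reads, with others added where a role is described. The members and lists were chosen with earlier results of these data known. Alternatives were other level thresholds, lengths, offsets and background genes, and, added after seeing the data, genes with 1 RefSeq transcript only.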

Additional observations from a re-analysis of the deposited data

How the results depend on the processing

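Single-liver values were not used here, so neither spread between livers nor the diet alternatives (size factors, filter, each liver left out) could be computed. No paired analysis was possible because the value used pools all livers. The count of genes at or above 1 CPM, 23, was 28 at 0.5 CPM, 21 at 2 CPM and 22, without Ctnnb1, with the offset subtracted. Of the 10 highest genes per kilobase, 10 remained with the longest transcript and 8 without length correction. The median percentile of the set, 44.1 among rows with reads, was 64.3 among all rows, 0 among rows at or above 1 CPM and 60.0 for genes with 1 transcript, a setting chosen after seeing the data. Per kilobase, the share of its role was 56.9% for Wnt2, 39.9% for Fzd1, 73.5% for Lrp6, 61.9% for Rspo3, 58.4% for Lgr4, 77.6% for Sfrp1 and 47.8% for Axin2. In CPM without length these were 42.4%, 34.9%, 79.5%, 72.0%, 53.8%, 85.8% and 53.5%. Over genes with 1 transcript, Lgr4 was at 95.8% (Rnf43 and Znrf3 left out) and Axin2, the lone such gene of its role, at 100%. With the offset kept, Wnt2 was at 48.6%, Sfrp1 at 76.1% and Axin2 at 42.5%.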
